A study of Bos taurus with 6 samples.

Results

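Some megabases of the bovine genome carried far more H3K4me3 regions than others in blastocysts, and 90 such windows are described here, on autosomes other than the 4 with the most peaks per Mb (18, 19, 23 and 25). The samples were 3 H3K4me3 ChIP-seq replicates, each a pool of approximately 11 unsexed bovine blastocysts (Bos taurus, produced by IVF and cultured under 5% oxygen), which were collected on day 8 at 192 h and precipitated with 3 µg of anti-H3K4me3 antibody. Each had an input library without antibody, which the authors used as the control in peak calling. The study derived the 3 pools from 2 independent IVF procedures, so at least 2 of the replicates shared one, and p-values over replicates treat them as independent. All samples belonged to a single condition, stages from early to hatched blastocysts were mixed in each pool, and inner cell mass and trophectoderm were not separated. Members were chosen by position and by detection. Peaks of the 3 lists that overlapped or touched were joined into regions, those with a peak in every replicate were assigned by midpoint to 1-Mb windows, and every region in a window with 20 or more of them was kept. This gave 2545 members in 90 windows, out of 13094 regions on the 25 autosomes considered and 16851 in the whole series. Windows of this kind made up 4.62% of the 1949 windows with at least 1 region.

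H3K4me3 is written on histone H3 by the SET1 and MLL methyltransferase complexes, mainly at promoters whose CpG islands are not methylated, and it is bound by readers that help to recruit the transcription machinery. Genes are spread unevenly along mammalian chromosomes, and gene-dense stretches hold many such promoters in a short space. The study placed only a minority of the peaks of replicate 1 on gene promoters, and the share among members was not examined. Cattle autosomes are acrocentric, with the centromere at the start of the sequence, so the last bases of an assembly lie towards the long-arm telomere. The peak lists use coordinates of the assembly UMD 3.1.1. No gene models or sequence of that assembly were used here, so the windows are named by position, apart from the window of GAPDH.

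The 90 windows covered 3.94% of the summed length of the 25 autosomes (2285 Mb, taken to the last peak of each chromosome). They held 3229 of the 17505 peaks of replicate 1 on these chromosomes (18.4%), 2804 of 14808 in replicate 2 (18.9%) and 3210 of 17181 in replicate 3 (18.7%). Members covered 7.90% of the windows in replicate 1, 6.62% in replicate 2 and 6.91% in replicate 3, against 1.38%, 1.16% and 1.21% for the other regions over the remaining length. These levels follow from the rule. Replicate 2 had the fewest peaks in its whole list (19076, against 22404 in replicate 1 and 22060 in replicate 3), and it also covered the least of the windows. That each window held at least 20 peaks in each list is fixed by the rule. Without the requirement of detection in all replicates, and with single peaks of a list counted in place of joined regions, more windows reached 20. These were 188 windows in replicate 1, 117 in replicate 2 and 179 in replicate 3.

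The number of regions per window had a median of 27 over the 90 windows and a highest value of 55. Just inside the threshold, 10 windows held exactly 20 regions, and their peak numbers were 21 to 34, 21 to 26 and 21 to 32 in replicates 1, 2 and 3. Just outside, 18 windows held 19 regions, with 20 to 31, 19 to 25 and 22 to 31 peaks in the same replicates. The mean covered length was 43.9 to 57.9 kb in the windows with 20 regions and 31.1 to 57.7 kb in those with 19, so that windows on both sides of the threshold overlapped in this measure. On chromosomes 18, 19, 23 and 25, which the rule leaves out, 63 of 207 occupied windows held 20 or more regions, up to 59, and chromosome X had 3 such windows.

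**Figure D1:**
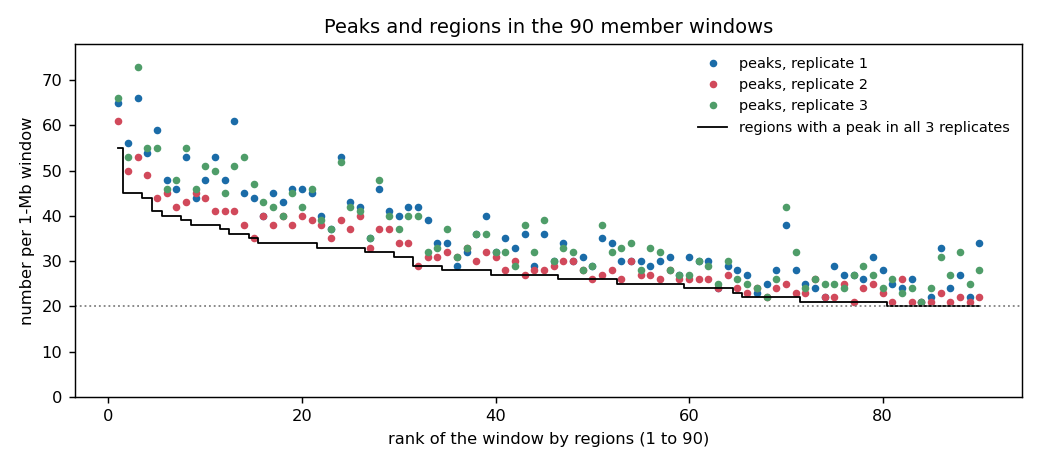
Number of peaks in replicates 1, 2 and 3 (coloured points) and of regions with a peak in all 3 replicates (black line) in each of the 90 windows, ordered by the number of regions; the dotted line marks 20. Replicate 2 has the lowest points in most windows, and no point lies under 21.

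The window with the most members was chr7:45000001-46000000, with 55 regions and 65, 61 and 66 peaks in replicates 1, 2 and 3. Its members covered 137.6 ± 11.7 kb (SD, n = 3), the highest covered length of all 90 windows. Second was chr22:51000001-52000000 with 45 regions and 56, 50 and 53 peaks. The window chr17:74000001-75000000, at the very end of chromosome 17, had as many regions (45) but 66, 53 and 73 peaks, so that in replicates 1 and 3 it held more peaks than the first window. The mean peak number of both was 64.0, with an SD of 2.65 for the window on chromosome 7 and 10.1 for that on chromosome 17, and their order by peaks is therefore not settled by these replicates. The window on chromosome 17 held 24 further regions that were missing in at least 1 replicate, and that on chromosome 7 held 14.

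Chromosome 29 supplied the next windows. The window from 44000001 to 45000000 held 44 regions and 54, 49 and 55 peaks, that from 45000001 to 46000000 held 41 regions and 59, 44 and 55 peaks, and that from 41000001 to 42000000 held 40 regions and 48, 45 and 46 peaks in replicates 1, 2 and 3. The peak numbers of the first and second of these overlapped between replicates. Near the start of chromosome 14, the window from 1000001 to 2000000 also held 40 regions, with 46, 42 and 48 peaks. On chromosome 5 the window from 26000001 to 27000000 held 39 regions and 53, 43 and 55 peaks, and that from 57000001 to 58000000 held 38 regions and 44, 45 and 46 peaks. The last of the 10 windows with the most members, chr3:14000001-15000000, held 38 regions and 48, 44 and 51 peaks. From the second to the tenth window, neighbours in this order differed by at most 3 regions. The SD of the peak number over replicates lay between 1.0 and 10.1. The number of regions is a single count from the 3 lists together, so this SD does not measure how firm the order is. Another window, chr29:43000001-44000000, also held 38 regions.

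**Figure D2:**
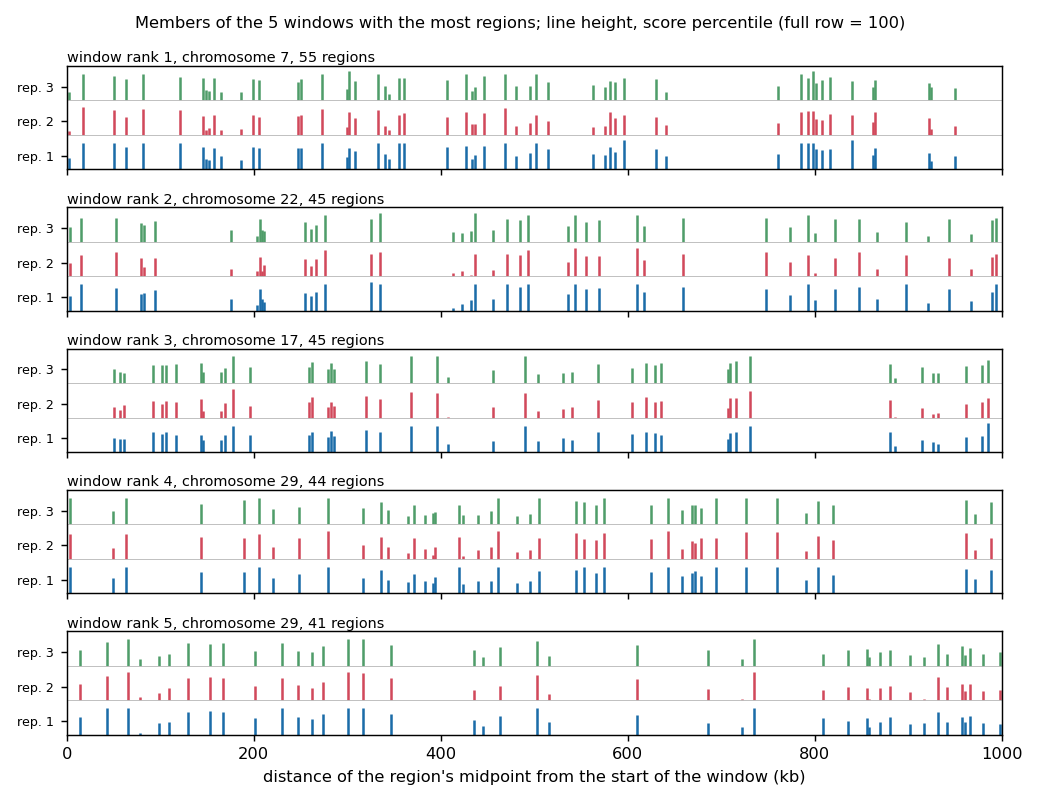
Members of the 5 windows with the most regions, placed by the distance of their midpoint from the start of the window (kb), with a line for each replicate whose height is the score percentile in that list. High and low lines recur at the same places in the 3 replicates, and regions lie along most of each window.

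Within the windows, members were spread over most of the megabase. When each window was divided into 10 stretches of 100 kb, 28 windows had a member in all 10, 24 in 9, 18 in 8, 13 in 7, 5 in 6 and 2 in only 5. The median distance between neighbouring members was 16.7 kb, with 6.35 and 36.4 kb as the 25th and 75th percentiles (2455 pairs within a window), against 55.03 kb for the other regions (8690 pairs). Of the members, 55.2% had another region within 10 kb and 23.4% within 3 kb, against 26.2% and 15.1% of the other regions. These distances follow from the density and are not a separate result. The longest distance between neighbouring members inside a window was 539.6 kb, so a window could reach 20 regions with a large stretch that held no member.

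The closest packing within 100 kb was found in chr7:54000001-55000000. A stretch of 96.2 kb at chr7:54099980-54196187 held 17 of the 35 members of this window. It was described because it held the most midpoints in any 100 kb of the 90 windows, after the values had been seen. Each of the 17 regions was a single peak in all 3 replicates. Their widths spanned 1080 to 1830 bp, 810 to 2106 bp and 494 to 1761 bp in replicates 1, 2 and 3, with medians of 1477, 1310 and 1280 bp. The scores of the peak caller ran from 125 to 1138, from 95.7 to 494 and from 106 to 823 in replicates 1, 2 and 3, and none reached 3100, the value that many of the strongest peaks share. Their median score percentile, which is the rank of the score within the list of the replicate, was 42.2, 34.9 and 42.7, so that the median of these closely packed regions, though not each of them, lay below the middle of each list. The distances between them were 1.72 to 12.6 kb, with a median of 3.59 kb.

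Members lay on 18 of the 25 autosomes. Chromosome 7 led with 17 windows and 523 members, which were 53.8% of its 973 regions. Chromosome 3 followed with 11 windows and 313 members, and chromosome 5 with 8 windows and 234 members. Chromosome 29 had 7 windows, but its 236 members were 56.5% of its 418 regions, the highest share of any chromosome. On chromosomes 4, 8, 16 and 26 there was 1 window each, with 26, 22, 37 and 24 members. Chromosomes 1, 9, 12, 20, 24, 27 and 28 had none, and their highest windows held 19, 12, 19, 19, 17, 17 and 18 regions, so chromosomes 1, 12 and 20 fell 1 region short of the threshold.

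**Figure D3:**
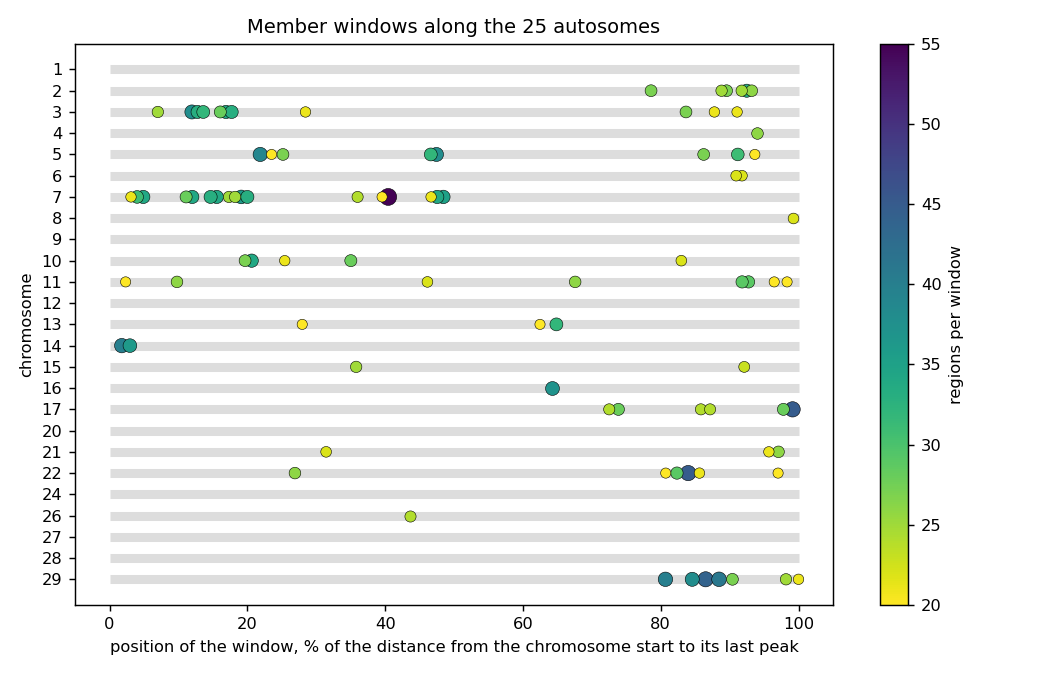
The 90 windows on the 25 autosomes, placed as the percentage of the distance from the start of the chromosome to its last peak; size and colour give the number of regions per window (20 to 55). Chromosome 7 carries 17 windows, none beyond its middle, and chromosomes 2, 17, 22 and 29 carry most of theirs near the far end.

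Towards the ends of the chromosomes opposite the centromere the windows were more frequent. Of the 90 windows, 25 (27.8%) had their centre within the last 10 Mb of a chromosome, on 11 chromosomes, where 11.6% of all 2300 windows of the 25 autosomes lie. Within the last 20 Mb there were 40 (44.4%, against 22.5% of all windows). The first 10 Mb held 7 windows (7.78%, against 10.9%), on 4 chromosomes. The 40 windows lay on 13 of the 18 chromosomes with members, and chromosomes 7, 13, 14, 16 and 26 had none in their last 20 Mb. No test is given, since windows of a chromosome are not independent.

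Many windows were neighbours. Of the 90, 35 stood alone, 28 formed 14 pairs, 15 formed 5 runs of 3 and 12 formed 3 runs of 4. The runs of 4 were chr29:43000001-47000000 with 150 members, chr7:19000001-23000000 with 119 and chr22:49000001-53000000 with 115. The run on chromosome 29 held 202, 162 and 199 peaks in replicates 1, 2 and 3, including peaks of regions missing in a replicate. Its members alone covered 434, 364 and 376 kb. That on chromosome 7 held 162, 137 and 152 peaks, and its members covered 322, 266 and 281 kb. That on chromosome 22 held 145, 124 and 135 peaks, and its members covered 312, 261 and 268 kb. In each run replicate 2 was lowest in both measures. Runs of 3 were at chr3:14000001-17000000 (103 members), chr3:19000001-22000000 (95), chr7:52000001-55000000 (90), chr7:3000001-6000000 (86) and chr2:125000001-128000000 (84).

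On chromosome 7 all 17 windows lay between 3 and 55 Mb. From the start of the chromosome, the run from 3000001 to 6000000 held windows of 21, 31 and 34 regions, the pair from 12000001 to 14000000 held 28 and 34, and the pair from 16000001 to 18000000 held 33 and 34. The run from 19000001 to 23000000 held 25, 25, 36 and 33 regions. A window with 24 regions stood alone at 40000001 to 41000000. It had 24, 24 and 25 peaks in replicates 1, 2 and 3 and only 1 region that was missing in a replicate, the fewest of all 90 windows, as in chr13:23000001-24000000 and chr21:22000001-23000000. The window with 55 regions was preceded by one with 20, and the run from 52000001 to 55000000 held 21, 34 and 35. The most regions that were missing in a replicate in any of the 90 windows, 26, were in the window from 16000001 to 17000000.

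Regions found in every replicate were a larger share of what was detected in the dense windows. Of 3449 joined regions there, 73.8% had a peak in all 3 replicates (95% Wilson interval 72.3 to 75.2%, counting error only), whereas this held for 67.4% of all 19420 joined regions on the 25 autosomes. The share was 69.3% (68.2 to 70.5%) in windows with 10 to 19 regions, 68.1% (66.9 to 69.3%) with 5 to 9 and 60.5% (58.9 to 62.1%) with 1 to 4. The classes were set by the number of regions found in all replicates, which is also the numerator of this share. Sorting windows by that number can by itself raise the share from class to class, and the intervals do not cover this. The order is therefore a description and is not tested. The 904 regions of the dense windows that were missing somewhere lacked a peak in replicate 2 most often (766), then in replicate 3 (426) and replicate 1 (284). They were weak, with a median score percentile of 14.8 in replicate 1, 7.44 in replicate 2 and 14.1 in replicate 3. The largest classes were 316 regions seen only in replicate 1 and 259 seen in replicates 1 and 3, while 65 were seen only in replicate 2. No region in a single replicate or in a pair of them had a mean score percentile above 42.8.

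The width and the score of the members were not used by the rule and were compared with those of the 10549 other regions on the 25 autosomes. The medians of both groups lay close together. The median covered width was 2499, 2104 and 2190 bp for members and 2515, 2137 and 2228 bp for the others in replicates 1, 2 and 3. The difference of -29.0 ± 11.5 bp (mean ± SD, n = 3 replicates) had the same sign in all 3 replicates (exact two-sided sign-flip permutation test, p = 0.25, the smallest that 3 pairs allow), and it was far smaller than the differences between replicates. Against windows with 10 to 19 regions alone it was -9.33 ± 11.7 bp, with signs that differed between replicates (exact permutation p = 0.5), and with equal weight for each window it was -153 ± 9.26 bp, so its size depended on the regions compared. The median score percentile was 63.4, 56.4 and 62.5 for members and 62.6, 55.8 and 62.2 for the others. This difference, 0.568 ± 0.275 percentile points, was positive in 3 of 3 replicates (exact permutation p = 0.25), but it turned to -1.08 when the windows were counted from position 500000, so no direction is given for it. Both medians are of the same region set in the 3 replicates, and the regions are not replicates of the embryos.

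Differences between members and other regions were found in the tails. A score of 3100 or above was reached by 22.9%, 5.54% and 18.9% of the members in replicates 1, 2 and 3, against 25.4%, 8.51% and 22.1% of the others. The difference was -2.90 ± 0.404 percentage points, negative in 3 of 3 replicates (exact permutation p = 0.25). In all 3 replicates at once, 141 members (5.54%) reached it, while the share among all regions on the 25 autosomes was 7.87%. These 141 were the members that reached it in replicate 2, so this count adds nothing to the value of that replicate. At the weak end, a score under 100 was found for 2.44%, 10.6% and 3.77% of the members and 3.66%, 11.9% and 4.86% of the others, a difference of -1.18 ± 0.0782 points, again negative in 3 of 3 (exact permutation p = 0.25). In all 3 replicates, 21 members (0.825%) scored under 100, against 1.38% of all regions. The weak tail was compared after its values had been seen.

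The widths behaved alike at the upper end. Members covered over at least 5 kb, the length from which H3K4me3 domains are often called broad, made up 6.92%, 3.93% and 4.56% in replicates 1, 2 and 3, against 9.02%, 4.82% and 5.89% of the others. This comparison was also chosen after the values had been seen, and gave -1.44 ± 0.619 points, negative in 3 of 3 replicates (exact permutation p = 0.25). At least 5 kb was covered in all 3 replicates in 89 members (3.5%), near the 4.0% of all regions. The 90th percentile of the width was 4542, 3850 and 4039 bp for members and 4860, 4155 and 4284 bp for the others, whereas the 10th percentile was 1311, 1024 and 1080 bp against 1263, 1009 and 1038 bp. Both ends of the width distribution were thus nearer to its middle among members in each replicate.

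**Figure D4:**
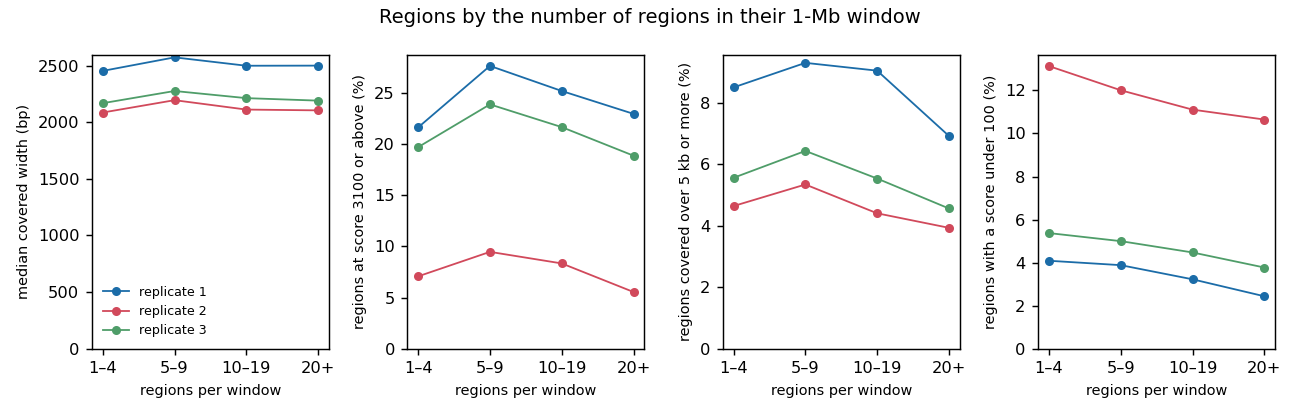
Median covered width, share of regions at a score of 3100 or above, share covered over 5 kb or more and share with a score under 100, for regions in windows with 1 to 4, 5 to 9, 10 to 19 and 20 or more regions, by replicate. Median width changes little, the shares of strong and of wide regions peak at 5 to 9 regions per window, and the share of weak regions falls from class to class in each replicate.

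Across windows of all densities, the strong tail did not move in 1 direction. In windows with 1 to 4 regions (2178 regions), 21.6%, 7.07% and 19.7% reached 3100 in replicates 1, 2 and 3. In those with 5 to 9 (4122 regions) it was 27.6%, 9.46% and 23.9%, and in those with 10 to 19 (4249 regions) 25.2%, 8.33% and 21.7%. Members therefore stood below the windows with 5 to 9 and 10 to 19 regions in each replicate, but below the sparsest windows only in replicates 2 and 3. The share under 100 fell in order, from 4.09%, 13.1% and 5.37% in the sparsest windows to the values of the members.

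Most members were called as a single peak. This was so in all 3 replicates for 2304 members (90.5%), while it held for 91.3% of all regions on the 25 autosomes. More than 1 peak was called in 2.32%, 4.36% and 6.40% of the members in replicates 1, 2 and 3, and in 1.76%, 3.52% and 5.76% of the others. The difference of 0.680 ± 0.149 percentage points was positive in 3 of 3 replicates (exact permutation p = 0.25).

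Members with a very close neighbour were narrower and scored lower than those with more space. Distances ran from edge to edge of the joined regions, so width and distance were not independent measures, and this effect was not tested. With a neighbour under 3 kb away (595 members), the median width was 2416, 1973 and 2046 bp and the median score percentile 59.0, 52.9 and 58.6 in replicates 1, 2 and 3. With the nearest region at 10 to 30 kb (804 members), the widths were 2668, 2221 and 2306 bp and the percentiles 67.3, 60.4 and 66.1. The closely spaced members were thus narrower, with a difference in median width of -253 ± 6.17 bp, and lower in score, with -7.79 ± 0.451 percentile points (mean ± SD, n = 3; exact permutation p = 0.25 for both). Width did not go on rising with distance, since the 337 members over 30 kb from the nearest region had medians of 2495, 2199 and 2256 bp. The other regions showed a like order, from 2066, 1703 and 1777 bp under 3 kb to 2569, 2210 and 2275 bp at 10 to 30 kb, with percentiles from 54.8, 47.3 and 54.7 to 65.4, 58.4 and 65.0, so it was not particular to members.

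Members scored higher than the other regions within each class of distance to the nearest region. Under 3 kb, the median score percentile of the 595 members exceeded that of the 1590 other regions by 4.21, 5.57 and 3.85 points in replicates 1, 2 and 3, and their median width by 350, 270 and 269 bp. The excess in width was far smaller in the next classes, with 6.5, 29 and 23 bp at 3 to 10 kb and 98.5, 11 and 31 bp at 10 to 30 kb. At 3 to 10 kb the excess in score percentile was 4.36, 4.23 and 4.25 points, at 10 to 30 kb 1.97, 1.97 and 1.12 points and over 30 kb 1.12, 3.28 and 1.48 points (exact permutation p = 0.25 for each class). Over 30 kb, the 337 members had a median width below that of the 5516 other regions (-115 ± 44.2 bp, exact permutation p = 0.25), although their scores ranked higher. That class held 52.3% of the other regions and 13.2% of the members. It has no upper limit, and spacing within it was not alike. The nearest region was over 100 kb away for 24 members and for 2266 other regions, so members are not matched on spacing there. The classes were set after the values had been seen, and these differences were not recomputed for other window origins.

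The medians of the 90 windows were spread more widely than the replicate values of a window. The median score percentile of a window, averaged over replicates, ran from 41.9 to 81.2, with an SD over windows of 8.31, while the SD over the 3 replicates of a window had a median of 4.01. The median width ran from 1455 to 3157 bp, with an SD over windows of 337 bp and a median SD over replicates of 201 bp. The replicates measured the same regions, whereas each window median rests on its own 20 to 55 regions. These SDs and the shared order of windows therefore do not show that windows differ beyond the regions that each happens to hold. That was not tested. The order of the windows was shared by the lists, with Spearman's rho of 0.923, 0.939 and 0.932 for the median score percentile and 0.865, 0.897 and 0.862 for the median width for replicates 1 with 2, 1 with 3 and 2 with 3 (90 windows, which are not replicates). The number of regions in a window said little about either, with rho of 0.079 to 0.104 for width and 0.006 to 0.084 for score over the 3 replicates. Windows with wide members tended to have strong ones, with rho of 0.735, 0.778 and 0.820 in replicates 1, 2 and 3, measures that share the same peaks and depth.

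**Figure D5:**
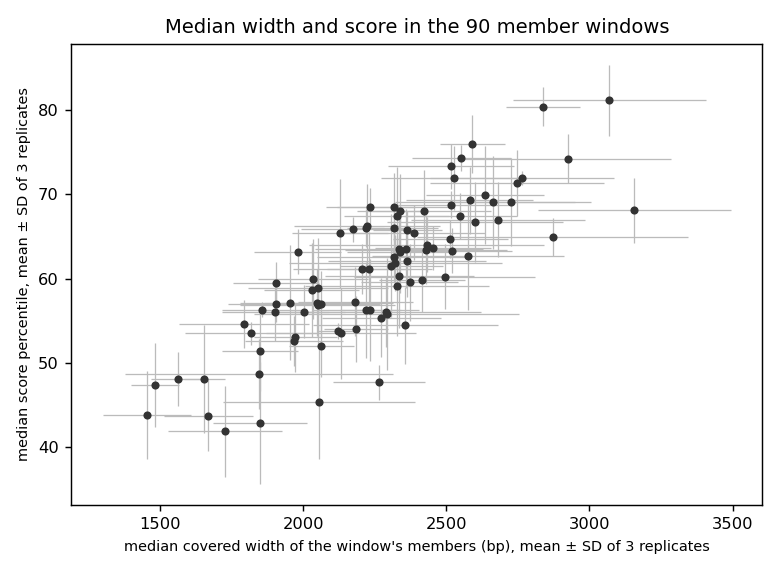
Median covered width (bp) and median score percentile of the members of each of the 90 windows; points and bars are the mean and SD of the 3 replicates. The windows run from 1455 bp and percentile 43.9 at the lower left to 3070 bp and percentile 81.2 at the upper right.

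Windows at the extremes were picked after these values had been seen. By the mean of the 3 replicates the highest median score percentile was in chr5:57000001-58000000, where it was 85.2, 76.8 and 81.5 and the median width was 3456, 2841 and 2913 bp in replicates 1, 2 and 3. In replicates 2 and 3 it was exceeded by chr3:19000001-20000000, with 79.0, 79.2 and 83.1. The 38 members of the window on chromosome 5 covered 135.4 ± 11.9 kb (SD, n = 3), close to the 137.6 kb of the first window with its 55. The window chr17:64000001-65000000 had the highest median width, 3526, 2864 and 3081 bp, with percentiles of 70.5, 63.7 and 70.2. At the other extreme, the 35 members of chr7:54000001-55000000 had median widths of 1630, 1399 and 1336 bp and percentiles of 47.9, 38.0 and 45.8. In chr4:113000001-114000000, the 26 members had widths of 1578, 1433 and 1436 bp and covered 40.2 ± 3.51 kb, the least of all windows and below the median of 46.2 kb in the windows with 19 regions. By the mean, the lowest median percentile was in chr21:69000001-70000000, with 45.8, 35.8 and 44.2, although in replicate 2 that of chr7:20000001-21000000 was lower (34.6).

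The widest member lay at chr5:26797252-26811210 and was covered over 13706, 11310 and 12136 bp in replicates 1, 2 and 3. It was called as 2, 3 and 4 peaks, and its score reached 3100 only in replicate 1, with 1894 in replicate 2 and 3015 in replicate 3. The next were chr2:127300656-127313275 with 12522, 10998 and 12032 bp, chr3:16824347-16837318 with 12784, 10799 and 11435 bp, chr17:74171642-74183796 with 11570, 10033 and 11647 bp, and chr3:20171343-20182915 with 11480, 10886 and 9399 bp. These 4 had a score of 3100 in all 3 replicates. Each of the 5 was called as more than 1 peak in at least 2 of the replicates.

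By score percentile the first member was chr11:99282956-99285814, an ordinary width of 2859, 2532 and 2373 bp with scores of 3100, 3100 and 3202. It was followed by chr14:1905629-1908742 (3158, 2102 and 3140), chr13:54061874-54067814 (3100, 3233 and 3100), chr10:86177626-86181092 (3100, 3228 and 3100) and chr22:52920377-52923950 (3100, 3217 and 3100). All 5 were single peaks in each list, and scores at or above 3100 may not rank peaks by strength because so many share that value. The weakest member, chr22:52743025-52744584, lay in the same window as the last of these, with scores of 58.5, 50.7 and 50.0. The other members with the lowest percentiles were chr11:10233322-10234555 (58.2, 66.9 and 50.3) and chr7:21668022-21668966 (50.6, 65.7 and 73.0). Strong and barely detected regions were therefore present in the same megabase.

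The window of GAPDH, which encodes a glycolytic enzyme used as a positive control for H3K4me3 in the study, was chr5:104000001-105000000. It held 27 regions and 29, 28 and 32 peaks in replicates 1, 2 and 3, with 5 more regions that were missing in a replicate. All 27 lay between 104039442 and 104634233, so the end of the window held no member. The positions of the 5 other regions are not given here. Of the regions in the stretch of the study's GAPDH snapshot, the widest was chr5:104239129-104243418. It was 4252, 3740 and 3520 bp wide and scored 3100, 3045 and 3100. Which region overlies the first exon was not checked against gene models. Its rank within the window was 3, 3 and 4 by width and 1, 2 and 1 by score in replicates 1, 2 and 3, tied with others at 3100 in replicates 1 and 3. Of the regions before it, chr5:104213619-104216951 had scores of 2997, 2218 and 3100. Between both lay chr5:104224012-104226870 with 1294, 480.0 and 1242, which ranked 13, 14 and 13 of 27.

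The next member after chr5:104239129-104243418, which was chr5:104270564-104275140, was described after its values had been seen. It was covered over 4417, 4396 and 3831 bp and was the only 1 of the 27 with a score of 3100 in all 3 replicates. By mean score percentile the weakest was chr5:104339443-104341148, which scored 84.0, 52.1 and 67.4, while chr5:104573168-104575070 scored lower in replicate 3 (60.9). In the gene order of RefSeq's annotation of ARS-UCD2.0, a later assembly, CHD4, which encodes a chromatin remodeller of the NuRD complex, NOP2, which encodes an rRNA methyltransferase, and IFFO1 precede GAPDH. NCAPD2, a condensin subunit gene, MRPL51, a mitochondrial ribosomal protein gene, and VAMP1, a vesicle fusion gene, follow it. Which members belong to which of these genes was not analysed here. The median score percentile of this window was 59.6, 48.2 and 59.8 in replicates 1, 2 and 3, below the medians over all members of 63.4, 56.4 and 62.5.

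The order of the regions was shared by the lists for members and others alike. Across members, Spearman's rho of the scores was 0.947, 0.955 and 0.956 for replicates 1 with 2, 1 with 3 and 2 with 3, against 0.947, 0.957 and 0.956 across the others. For the covered width it was 0.908, 0.928 and 0.922 for members and 0.920, 0.933 and 0.929 for the others. These are correlations over regions of the same libraries, given without a p-value.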

How the data were processed

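H3K4me3 ChIP-seq was performed in 3 replicates of bovine blastocysts. The authors aligned 51-base single-end reads to UMD 3.1.1 (bosTau8) with Bowtie 1.2.3 per the labels, discarded duplicates by Picard, and ran MACS on each library with its own input as the control. They deposited 1 list per replicate with the start, end and peak caller's score of each peak. The scale of the score and the thresholds are not given in the sources used here, and the score moves with depth, so it was ranked within each list (mid-rank percentiles). The highest-scoring peak represented a region. Starts were raised by 1 for printing. Read numbers are not part of the lists, and the depth behind a region is unknown.

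Python 3.11.15, NumPy 2.4.6, pandas 2.3.3, statsmodels 0.14.6 and Matplotlib 3.10.9 were used. Differences over replicates were tested with the exact sign-flip permutation test. With 3 pairs p cannot fall below 0.25, and replicates from the 2 IVF procedures of the study are not told apart in the labels. The counting and the test were tested on simulated data. Members, windows and comparisons were chosen with earlier results of these data known. The regions and windows named are the 10 windows with most members, the longest runs, the windows of the chromosome with most of them, the 5 widest, 5 highest-scoring and 3 lowest-scoring members, and the GAPDH snapshot. Others are marked in the text. Alternatives covered the window origin and threshold, joining, a score filter, overlap, replicates, comparison regions and weighting. Inputs had no file of their own among those used here.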

Additional observations from a re-analysis of the deposited data

How the results depend on the processing

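With a threshold of 15 regions per window, 184 windows and 4127 members were found, and with 25 there were 59 windows (1881 members), as the threshold itself sets. Leaving out 1 replicate gave 95 to 128 windows and 2701 to 3651 members (the most without replicate 2). All 90 windows were among them each time. Little else was possible, since leaving out a list drops a condition of the rule, although regions joined only through that list can split. Counting windows from position 500000 gave 87 windows, and 1834 members (72.1%) were shared with the main set. Under this origin the difference in score percentile was -1.08 in place of 0.568, and the cause was not tested. It was 0.160 to 0.494 when a replicate was left out and kept the sign of its mean under the other 14 alternatives, down to 0.048 against windows of 10 to 19 regions (exact permutation p = 0.75). The means of the other differences kept their sign, but not their size. The width was -44.5 bp without replicate 3 and -33.25 bp without replicate 2, -9.33 bp against windows of 10 to 19 regions (signs differed between replicates), -70.3 bp under the other origin, -79.8 bp as a mean over regions and -153 bp with equal weight of windows. The share at the top score was -3.25 to -2.86 points without a replicate and -1.71 with equal weight of windows. The share called as more than 1 peak was 0.382 to 0.663 points without a replicate and 0.256 within chromosomes. For the shares under 100 and over 5 kb the alternatives were added after seeing the data, and gave -2.05 to -0.649 and -2.38 to -1.02 points. The smallest exact permutation p was 0.25 with 3 replicates and 0.5 with 2, so the p-values say nothing about stability. No paired analysis was possible because the inputs, which share replicate numbers with the H3K4me3 samples, have no values here, and this concerns H3K4me3 against input only. The comparisons within each H3K4me3 list are paired by list. The number of reads behind weak regions is unknown, so a region missing in replicate 2 was only not detected.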
